A study of Homo sapiens and Mus musculus with 20 samples.

Results

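Satb1 is a nuclear protein that binds A/T-rich DNA and organizes chromatin. Its N-terminal domain joins Satb1 molecules together, 2 CUT domains and a homeodomain contact DNA, and the protein is best known for its part in the development of T cells. N-C1 is a truncated form that keeps the N-terminal domain and the CUT1 domain and lacks both the CUT2 domain and the homeodomain. ∆HD lacks the homeodomain alone. The sites described here are those that appeared in the peak list of N-C1 and at which neither the full-length protein nor ∆HD had a peak. An N-C1 peak was taken as a member if it shared not a single base pair with a peak of the full-length list or of the ∆HD list. Members were thus chosen by the presence and absence of peaks in these 3 lists. By this rule 19151 of the 62856 N-C1 peaks were members, out of 198095 peaks in the 5 Satb1 ChIP-seq lists of this cell line. The N-C1 list used here is longer than the set of N-C1 sites that the study reports. Which members lie outside that set is not known.

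All lists came from MCF10A, a human mammary epithelial cell line that does not express native Satb1. For ChIP-seq the cells expressed full-length Satb1, ∆HD or N-C1 as eGFP fusions from an inducible lentiviral construct. The cells had been sorted through the same fluorescence gate, and the chromatin was precipitated with an antibody against GFP. In 2 further lists, cells with the full-length fusion had been treated for 2 h with camptothecin, an inhibitor of topoisomerase I, or with ICRF-193, an inhibitor of topoisomerase II. These enzymes relax the twist that builds up in DNA. Chromatin accessibility was read from ATAC-seq lists of native MCF10A cells and of MCF10A cells expressing Satb1. The study states that its genomics experiments were run in duplicate, but each condition had a single peak list here. No p-value is therefore given, and no difference between lists could be set against a replicate error. The interval behind a share is the exact 95% one of Clopper and Pearson, and that behind a mean is a 95% interval over the peaks averaged. These intervals cover counting error only. The 7 lists held from 22877 peaks for full-length Satb1 to 206170 for ATAC-seq of cells expressing Satb1, and the number of reads behind each list was not given, the study stating only a common range for its ChIP-seq libraries. A site that is absent from a list lay below that list's threshold and is not shown to be unbound. Binding by N-C1 alone and a difference in depth between the lists cannot be told apart at a member.

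Members were set beside the 21985 N-C1 peaks that overlapped ∆HD but not full-length Satb1, the 20038 N-C1 peaks common to the 3 constructs and the 8654 ∆HD peaks found with neither other construct. The first of these classes is the closest counterpart, since the full-length list plays the same part in its definition. The remaining 1682 N-C1 peaks overlapped full-length Satb1 alone.

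The sequences below are 200 bp of the reference, forward strand, hg19, at the midpoints of 4 of the 5 members with the largest N-C1 fold enrichment on chromosomes 1 to 22 and X. They show what DNA lay under strong N-C1 peaks without a peak of the other constructs. The single stronger member, of 13.3-fold, was called on chromosome Y, which held 18 members (0.783 per Mb) and was left out of the ranks. Whether the reads placed there came from chromosome Y was not tested, and these members stay in the counts. Capitals mark matches to the Satb1 consensus YTAWTAR, in which Y stands for C or T, W for A or T and R for A or G. It has 8 forms, which fall into 4 pairs of a sequence and its reverse complement. The first pair is CTAATAA with its complement TTATTAG. The second pair is CTAATAG with its complement CTATTAG. The third pair is CTATTAA with its complement TTAATAG. The last pair is TTAATAA with its complement TTATTAA. Matches on both strands are thus shown, and neighbouring matches may overlap.
chr2:31676939-31677138: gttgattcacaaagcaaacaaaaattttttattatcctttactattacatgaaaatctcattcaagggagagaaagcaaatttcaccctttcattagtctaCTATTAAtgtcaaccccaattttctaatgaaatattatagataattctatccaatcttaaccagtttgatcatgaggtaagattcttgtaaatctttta
chr2:52294881-52295080: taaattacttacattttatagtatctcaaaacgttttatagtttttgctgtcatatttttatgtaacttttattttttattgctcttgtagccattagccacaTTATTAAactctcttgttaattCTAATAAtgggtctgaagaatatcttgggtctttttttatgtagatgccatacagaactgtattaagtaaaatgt
chr9:69340604-69340803: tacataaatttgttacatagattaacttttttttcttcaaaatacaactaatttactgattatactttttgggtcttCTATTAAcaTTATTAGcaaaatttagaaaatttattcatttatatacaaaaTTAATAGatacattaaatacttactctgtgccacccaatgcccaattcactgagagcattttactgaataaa
chr2:74948446-74948645: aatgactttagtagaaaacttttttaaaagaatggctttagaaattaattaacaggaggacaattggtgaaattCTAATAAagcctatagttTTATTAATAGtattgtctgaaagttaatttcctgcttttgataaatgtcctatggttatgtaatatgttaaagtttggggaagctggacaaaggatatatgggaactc

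The first spans 31676836 to 31677242 on chromosome 2, is intergenic, 39.4 kb from the start of XDH, which encodes xanthine dehydrogenase, and had a fold enrichment of 12.8. It held a single match. The second (chromosome 2, 52294781 to 52295180, 11.4) and the third (chromosome 9, 69340511 to 69340896, 11.4) are intergenic. Their matches include pairs 22 bp and 9 bp apart. The last (chromosome 2, 74948366 to 74948725, 11.2) is intergenic, and of its 3 matches the last 2 overlap and together span 10 bp. All 4 were among the 1022 members recovered after camptothecin, and all but the first were also recovered after ICRF-193.

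Most members were weak and narrow. Fold enrichment is the authors' value of pileup over local background for each peak. Its median was 4.83 among members (from 2.02 to 13.3), against 5.70 where ∆HD was also found and 11.1 at common sites. Of the members, 8095, or 42.3% (41.6 to 42.97), reached a fold enrichment of 5, against 44952, or 71.5%, of all N-C1 peaks. The study's reporting summary names a 5-fold enrichment where it counts peaks. The median width was 278 bp, against 321 bp and 433 bp. These values belong to the N-C1 list that chose the members, and they are given as a description. When all N-C1 peaks were ranked into 4 classes of fold enrichment, with bounds at 4.83, 6.001 and 8.82, 9452 members fell into the weakest class, 7258 into the second, 2357 into the third and 84 into the strongest. Common sites were distributed the opposite way, with 69.3% in the strongest class. Contrasts of motif presence, motif number, A/T content and accessibility with common sites and with N-C1 and ∆HD sites are therefore also given within these strength classes. So is the contrast of recovery with N-C1 and ∆HD sites. The remaining contrasts, with that of recovery with common sites, are given over all strengths only.

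In distance to other peaks, few members lay at the edge of the rule, although most were weak peaks of the N-C1 list. The median distance from a member to the nearest full-length or ∆HD peak was 11896 bp, and 646 members (3.37%) had one within 500 bp. The 2 members nearest to such a peak lay 3 bp and 4 bp away from it, one on chromosome 3 (90100975 to 90101346, fold enrichment 5.18) and one on chromosome 4 (139080653 to 139080929, 4.31). Just outside the rule, the smallest overlaps were 1 bp at an intronic peak of PIGK on chromosome 1 (77664093 to 77664456, 5.002) and 2 bp at an intergenic peak of the same chromosome (194816697 to 194817340, 5.35). Only 6 of the 43705 other N-C1 peaks owed their class to an overlap of 10 bp or less.

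Nearly all members held the consensus. In 400 bp centered on the peak, 17888 members had at least 1 match, or 93.4% (93.0 to 93.8). The share of all N-C1 peaks was 94.5%, and that of all 400 bp tiles of the genome was 25.8%. The share in members lay close to the 93.6% (93.2 to 93.9) of N-C1 and ∆HD sites, from which it differed by −0.15 percentage points (−0.63 to 0.33), with differences within the strength classes of 0.70 (−0.25 to 1.68), 0.65 (−0.10 to 1.41), 1.37 (0.39 to 2.24) and 5.20 (−0.18 to 6.93) from the weakest to the strongest. The share at common sites was 96.5%, a difference of −3.08 (−3.51 to −2.64) that did not hold at equal strength, where it was 1.65 (−1.07 to 5.21), −1.14 (−2.35 to 0.36), −0.60 (−1.57 to 0.29) and 2.18 (−3.07 to 3.21). Of ∆HD-only peaks, 88.2% had a match, so that members were higher by 5.20 percentage points (4.45 to 5.98).

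The number of motifs separated members from common sites more than the presence of one. In all, 12444 members (64.98%, 64.3 to 65.7) held 2 or more matches, against 72.0% of all N-C1 peaks and 5.27% of tiles. A single match was found in 5444 members (28.4%), 2 in 7493 (39.1%), 3 in 3854 (20.1%) and 4 or more in 1097, or 5.73% (5.40 to 6.07), against 0.168% of tiles. Common sites had 4 or more in 23.9% (23.3 to 24.5). The most motifs in any member was 7, while common sites reached 21. The mean was 1.91 (SD 1.01 across members, 95% interval 1.89 to 1.92), against 2.03 at N-C1 and ∆HD sites, 2.71 at common sites and 0.322 per genome tile. The difference from common sites was −0.80 (−0.82 to −0.78). It narrowed but kept its direction within the strength classes, from −0.34 (−0.39 to −0.29) in the third class to −0.41 (−0.49 to −0.34) in the second. The difference from N-C1 and ∆HD sites was −0.12 (−0.14 to −0.10), and within the strength classes it went from −0.09 (−0.13 to −0.06) in the weakest to 0.32 (0.11 to 0.53) in the strongest, so no single direction held.

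**Figure D1:**
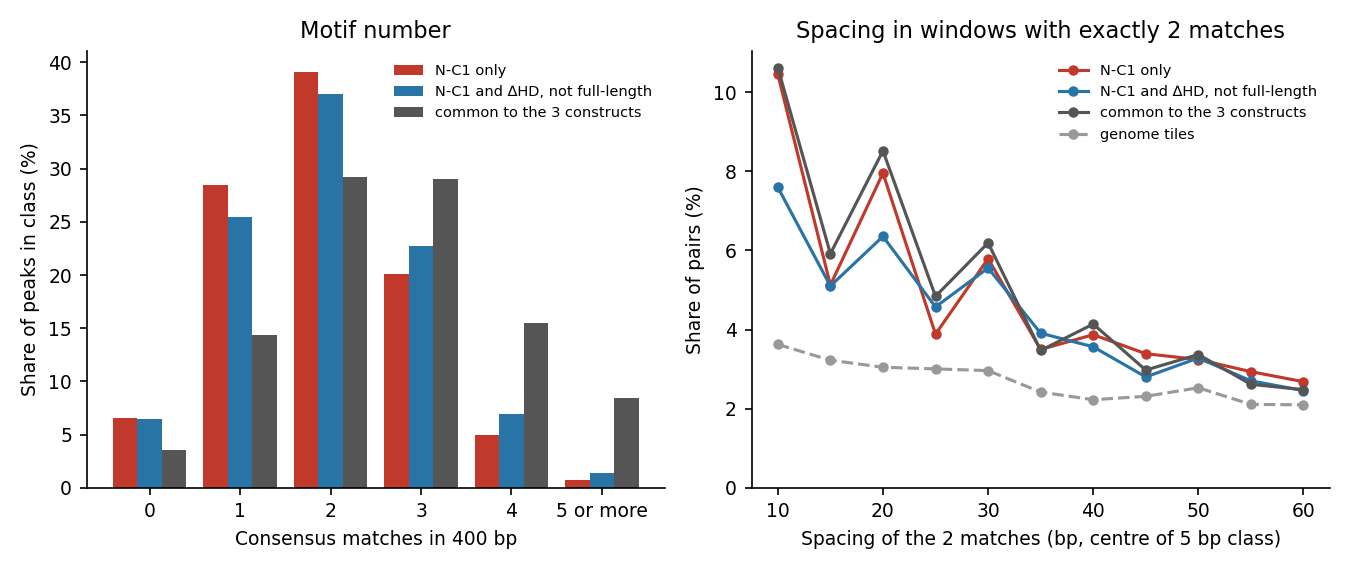
Left, share of peaks (%) by the number of consensus matches in 400 bp for members (red), N-C1 and ∆HD sites (blue) and common sites (gray). Right, share of pairs (%) by the spacing of the 2 matches, in 5 bp classes, for windows with exactly 2 matches, with genome tiles dashed. Members are most often at 2 matches (39.1%), and their pairs are more frequent at 8 to 12 bp (10.4%) and 18 to 22 bp (7.95%) than at 13 to 17 bp (5.12%) and 23 to 27 bp (3.88%).

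Of the members with 6 matches, the pair with the largest fold enrichment lie in an intron of ADGRL3, an adhesion receptor of neurons, on chromosome 4 (62272073 to 62272490, 6.22), and in an intron of ST20-MTHFS, a readthrough gene that includes the folate enzyme MTHFS, on chromosome 15 (80192995 to 80193286, 6.04). The first was found after ICRF-193 alone and the other in neither drug list. Here 300 bp of each are printed to show how the matches are dispersed, which leaves 5 of 6 and 6 of 6 matches in view.
chr4:62272132-62272431: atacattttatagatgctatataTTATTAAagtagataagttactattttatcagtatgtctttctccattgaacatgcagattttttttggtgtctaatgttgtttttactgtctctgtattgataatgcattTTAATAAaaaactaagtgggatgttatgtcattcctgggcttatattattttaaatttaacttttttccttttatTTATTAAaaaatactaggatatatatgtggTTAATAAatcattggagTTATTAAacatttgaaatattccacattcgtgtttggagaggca
chr15:80192991-80193290: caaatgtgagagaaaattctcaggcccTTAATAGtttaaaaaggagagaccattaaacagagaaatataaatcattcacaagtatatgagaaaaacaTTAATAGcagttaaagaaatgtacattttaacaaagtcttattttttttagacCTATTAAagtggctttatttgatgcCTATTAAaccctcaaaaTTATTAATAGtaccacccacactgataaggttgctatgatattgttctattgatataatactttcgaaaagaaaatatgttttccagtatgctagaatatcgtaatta

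Across members, fold enrichment changed little with motif number. Its mean was 4.84 (SE 0.0123) at 1 motif, 4.96 (SE 0.0110) at 2, 5.04 (SE 0.0170) at 3 and 5.03 (SE 0.0911) at 5 or more. At common sites it went from 12.4 (SE 0.153) at 1 motif to 25.5 (SE 0.445) at 5 or more. A site with a large fold enrichment is seldom a member, so the range in which members could differ was set in part by the rule.

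Matches were centered on the summit. Density in members was 15.3 matches per kb in the 20 bp just downstream of the summit and 1.03 per kb at 490 bp. The nearest match lay a median of 19 bp from the summit in members, 19 bp at N-C1 and ∆HD sites, 12 bp at common sites and 28 bp at ∆HD-only peaks. A match within 25 bp of the summit was found in 55.1% of members (54.4 to 55.8), against 55.8% (55.1 to 56.5), 70.5% (69.9 to 71.2) and 41.8% (40.8 to 42.9) in those classes.

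**Figure D2:**
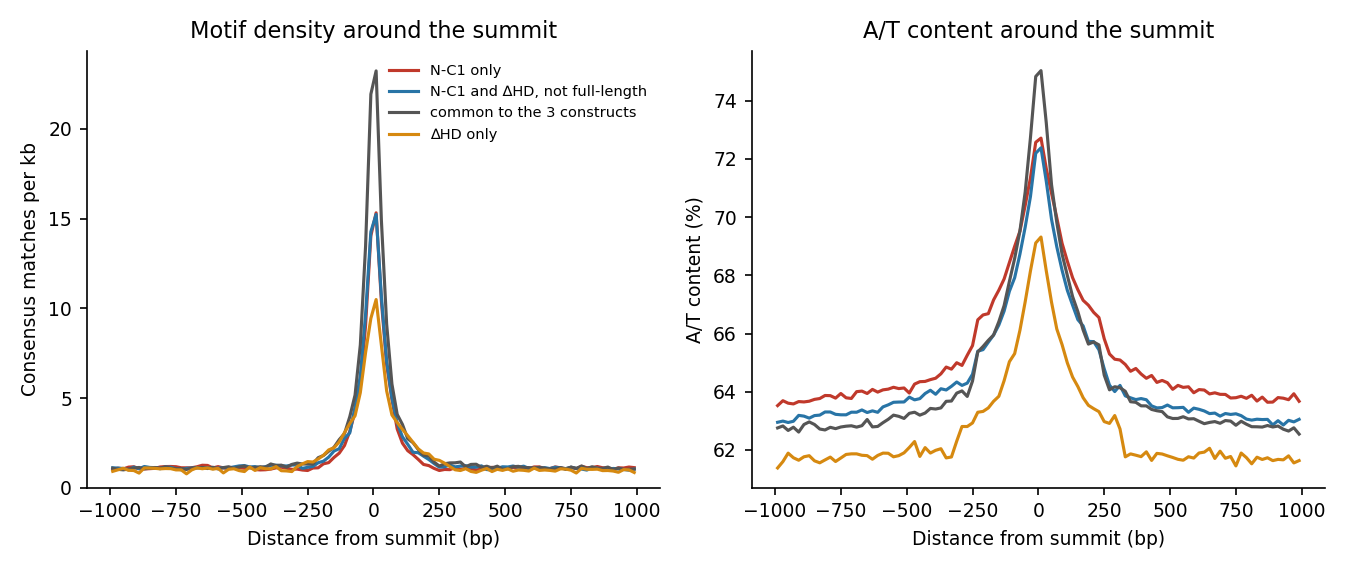
Consensus matches per kb (left) and A/T content in % (right) by distance from the summit in bp, averaged over the peaks of each class. Members (red) and N-C1 and ∆HD sites (blue) lie close together in motif density, below common sites (gray, 23.2 matches per kb just downstream of the summit) and above ∆HD-only peaks (orange, 10.5).

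The forms of the consensus in members, as in the other classes, were unlike those of the genome. CTAATAA and its complement TTATTAG made up 33.8% (33.1 to 34.6) of 14326 matches, the nearest to each member's summit where one lay within 50 bp, and 22.5% of the 2339362 matches in the genome. CTATTAA and TTAATAG made up 13.3% (12.8 to 13.9) against 21.6%. TTAATAA and TTATTAA, the form without C or G, took 42.9% (42.1 to 43.7) against 44.8%, and CTAATAG and CTATTAG took 9.95% (9.47 to 10.5) against 11.1%. The narrower consensus CTAATAA or CTAATAG, on either strand, was found in 56.9% of members, against 60% of N-C1 and ∆HD sites, 69.1% of common sites and 10.1% of genome tiles.

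Where a member held exactly 2 motifs at a short spacing, their starts tended to lie a multiple of about 10 bp apart. About 10 bp is close to a turn of the double helix. The 7493 pairs had a median spacing of 50 bp. Windows of 8 to 12, 18 to 22 and 28 to 32 bp held 1813 of them. The windows that followed each, 13 to 17, 23 to 27 and 33 to 37 bp, held 937. Among the pairs inside these windows only, 65.9% (64.1 to 67.7) lay in the former, near multiples of 10 bp. At N-C1 and ∆HD sites the share was 59.0% (57.1 to 60.8), at common sites 64.0% (62.0 to 66.0), at ∆HD-only peaks 54.0% (50.4 to 57.5) and in genome tiles 52.7%. The later windows lie farther out, which raises all of these shares. With windows on both sides of 20, 30, 40 and 50 bp, pairs on these multiples outnumbered pairs between them 1.41 to 1 in members, 1.24 to 1 at N-C1 and ∆HD sites, 1.43 to 1 at common sites and 1.03 to 1 in genome tiles. A spacing of exactly 9 bp was found in 285 pairs (3.804%), against 2.16% of pairs at N-C1 and ∆HD sites, 2.98% at common sites and 0.964% in genome tiles. The site at 69340511 on chromosome 9, printed above, shows a spacing of 9 bp.

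Members were A/T-rich. In 200 bp at the midpoint they held 70.8% A/T (SD 3.91 across members, 95% interval 70.7 to 70.8), against a mean of 59.1% (SD 9.44) over genome tiles. Their flanks, 1000 to 2000 bp away, held 63.3% (63.2 to 63.3), and 92.6% of members (92.2 to 92.9) exceeded their own flanks, against 92.8% of all N-C1 peaks, 91.4% of N-C1 and ∆HD sites and 94.1% of common sites. The central 50 bp held 72.2%. ∆HD-only peaks held 67.2%, so that members were higher by 3.597 percentage points (3.46 to 3.73), in flanks of 61.4%.

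Compared with common sites, members had a difference in A/T of −0.70 percentage points (−0.79 to −0.62), which held at equal strength only in part. It was −0.63 (−1.32 to 0.05) in the weakest class, which held only 358 common sites, and −0.58 (−0.94 to −0.23) in the second. It was −0.06 (−0.27 to 0.14) in the third and 0.30 (−0.40 to 0.99) in the strongest. The contrast with the flanks did hold: A/T content rose by 7.52 percentage points from flank to peak in members and by 9.05 at common sites, and the increase was smaller in members in every strength class, with a difference from −0.82 (−1.09 to −0.54) in the third class to −1.81 (−2.52 to −1.11) in the weakest. The flanks of members were themselves richer in A/T than those of common sites, by 0.83 percentage points (0.74 to 0.92). Compared with N-C1 and ∆HD sites, members were more A/T-rich in all 4 classes, by 0.74 (0.57 to 0.91) in the third and by 1.32 (0.60 to 2.04) in the strongest, and by 0.72 (0.64 to 0.80) over all.

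The DNA next to the motif had the same order of A/T content across the classes. From 5 to 20 bp on either side of the centre of the match nearest the summit, the A/T content was 71.6% (71.5 to 71.8) in members, 70.8% (70.7 to 70.9) at N-C1 and ∆HD sites, 73.8% (73.6 to 73.9) at common sites and 68.6% (68.4 to 68.8) at ∆HD-only peaks. The spread between single matches was wide, with an SD of 8.42 percentage points in members.

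The 1263 members without a match (6.59%) held 70.5% A/T, against 70.8% over all members, and had a mean fold enrichment of 4.65. The strongest of them lies in the 3′ UTR of IRF4, a transcription factor of lymphoid cells, on chromosome 6 (409074 to 409436, fold enrichment 8.50). The other two named ones are intergenic, on chromosome 4 (43245553 to 43245889, 8.30) and on chromosome X (97242137 to 97242500, 8.30). The last was found in both drug lists, with a fold enrichment of 8.90 after ICRF-193. Its central 200 bp show A/T-rich DNA in which no 7 bases fit the consensus.
chrX:97242219-97242418: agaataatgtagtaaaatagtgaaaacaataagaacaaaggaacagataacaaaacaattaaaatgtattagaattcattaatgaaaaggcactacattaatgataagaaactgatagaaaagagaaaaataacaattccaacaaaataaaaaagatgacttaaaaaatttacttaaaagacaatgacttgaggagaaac

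Of other motifs, the SP1 box was far less frequent in members than in the genome, as it was in all N-C1 peaks. TGANTCA, the binding sequence of AP-1 (searched on both strands, N being any base), was found in 13.2% of members (12.7 to 13.7), 13.1% of all N-C1 peaks and 12.2% of tiles. GGGCGG, the SP1 box, was found in 0.637% of members (0.529 to 0.760), 0.713% of all N-C1 peaks and 5.37% of tiles. CCAAT was found in 51.8% (51.1 to 52.5), 52.1% and 47.1%. Members were mostly separate sequences. A stretch of 25 bp within the central 200 bp was shared with at least 1 other member in 1581 members (8.26%), and 281 (1.47%) carried a stretch that 10 or more members had in common. The corresponding shares were 8.83% and 1.37% at N-C1 and ∆HD sites and 11.4% and 2.77% at common sites.

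Members were seldom accessible. Of the 19151 members, 671, or 3.50% (3.25 to 3.77), lay in whole or in part within accessible regions of native MCF10A cells, against 3.73% of all N-C1 peaks and 7.46% of genome tiles of the median member width. In cells expressing Satb1, 695 did, or 3.63% (3.37 to 3.90), against 4.35% and 10.9%. Both lists held 528 members, and 18313, or 95.6% (95.3 to 95.9), overlapped neither. ATAC-seq of cells expressing N-C1 was not analysed here.

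Between the classes, the share of members accessible in native cells was close to that of N-C1 and ∆HD sites (3.70%, a difference of −0.20 percentage points, −0.56 to 0.16) and was lower than that of common sites (4.05%, −0.55, −0.93 to −0.17) and of ∆HD-only peaks (5.52%, −2.02, −2.58 to −1.48). An overlap of 1 bp or more is easier for a wider peak. Median widths were 278 bp in members, 321 bp at N-C1 and ∆HD sites, 433 bp at common sites and 351 bp at ∆HD-only peaks. The part of width in the differences of accessibility was not tested. Within the strength classes, the interval of the difference from N-C1 and ∆HD sites excluded 0 in the third class alone, at −1.18 (−1.84 to −0.40). In cells expressing Satb1 the difference from N-C1 and ∆HD sites was −0.55 (−0.92 to −0.17), with intervals below 0 in the 3 weaker classes, and that from common sites was −1.62 (−2.02 to −1.21). Only 167 members (0.872%, 0.745 to 1.01) were accessible in cells expressing Satb1 and not in native cells, against 385 common sites (1.92%, 1.74 to 2.12). Within the 3 weaker strength classes, members were less accessible than common sites in both lists, and the intervals in the strongest class included 0. Members in the lowest quartile of A/T content were accessible in 5.54% (4.94 to 6.20), those in the highest in 1.75% (1.39 to 2.19).

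**Figure D3:**
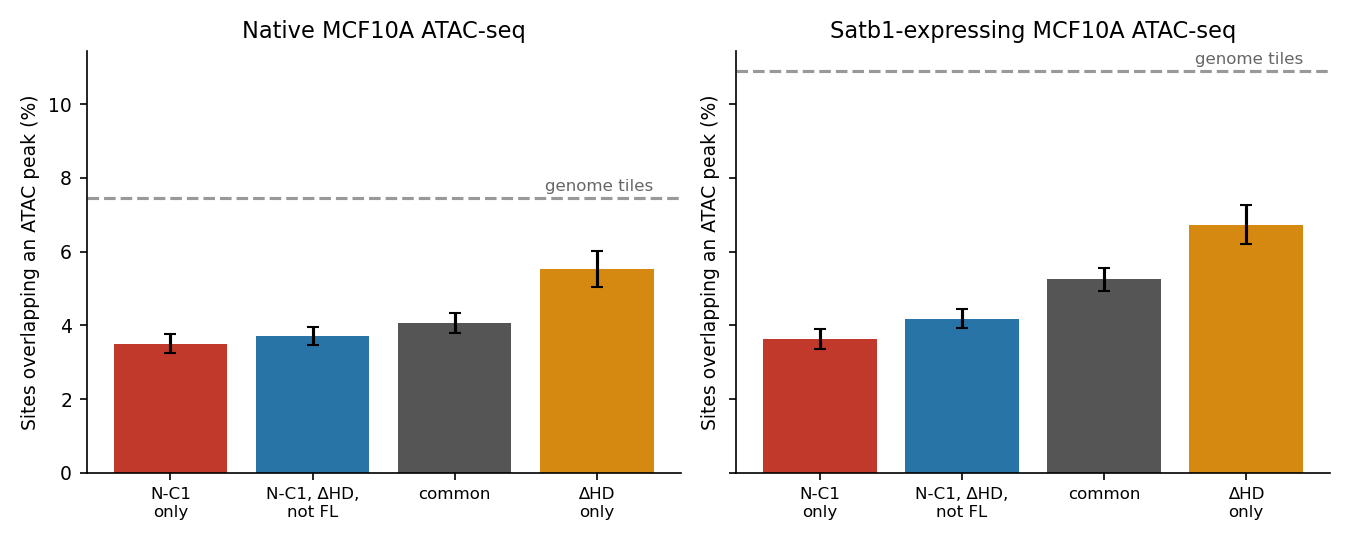
Share of sites (%) that overlap an ATAC-seq peak of native MCF10A cells (left) and of MCF10A cells expressing Satb1 (right), by class. Error bars are exact 95% intervals, and dashed lines are genome tiles (7.46% and 10.9%). All 4 classes lie below the tiles. The shares of members are 3.50% and 3.63%, and in native cells their interval overlaps that of N-C1 and ∆HD sites.

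The accessible members differed in sequence from the others. Members accessible in native cells held the AP-1 sequence in 24.4% (21.2 to 27.9), against 12.8% (12.3 to 13.3) of the inaccessible ones. They had a consensus match less often, in 88.4% (85.7 to 90.7) against 93.6% (93.2 to 93.9), were at promoters more often, in 2.53% (1.48 to 4.03) against 0.498% (0.402 to 0.610), and had 69.1% A/T against 70.9%. At common sites, AP-1 was also more frequent in the accessible ones, in 18.97% (16.3 to 21.8) against 12.4% (11.9 to 12.9). The strongest members in both ATAC-seq lists were an intergenic site on chromosome 3 (106925241 to 106925602, fold enrichment 8.82), the IRF4 site without a match, and a site in an intron of KCTD16, an auxiliary subunit of GABA-B receptors, on chromosome 5 (143567601 to 143567974, 8.30).

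A smaller share of members than of any other N-C1 class overlapped a peak of full-length Satb1 after a topoisomerase inhibitor. The drug lists took no part in choosing the members. Untreated full-length Satb1 had a single list, so recovery was not shown to follow from the drug. After camptothecin, 1022 members were peaks, or 5.34% (5.02 to 5.66), against 35.4% of all N-C1 peaks and 0.576% of genome tiles. After ICRF-193, 2928 were, or 15.3% (14.8 to 15.8), against 50% and 0.889%. In all, 765 members were found in both lists (3.99%, against 33.6% of all N-C1 peaks), 257 only after camptothecin, 2163 only after ICRF-193 and 15966, or 83.4% (82.8 to 83.9), in neither. The ICRF-193 list held 37350 peaks and the camptothecin list 24475, and the depth of each was not given, so the higher share for ICRF-193 cannot be told apart from a longer list. Common sites were recovered in 81.9% and 92.9%, but being full-length peaks of untreated cells is part of their definition, and the full-length protein was also the one used in the drug lists.

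N-C1 and ∆HD sites, which like members had no full-length peak in untreated cells, were recovered in 15.7% (15.2 to 16.2) after camptothecin and 37.7% (37.1 to 38.3) after ICRF-193. A ∆HD peak is part of their definition, and its absence is part of that of members. The contrast is thus not free of the rule, also at equal strength. The difference, members minus these sites, was −10.4 percentage points (−10.97 to −9.81) and −22.4 (−23.2 to −21.6). At equal strength the difference was smaller. After ICRF-193 it was −13.7 (−15.1 to −12.4) in the weakest class, −13.5 (−14.8 to −12.2) in the second, −16.4 (−18.6 to −14.2) in the third and −12.6 (−23.6 to −2.50) in the strongest. After camptothecin it was −5.64 (−6.56 to −4.76), −6.15 (−7.02 to −5.27) and −8.65 (−10.2 to −7.06) in the 3 weaker classes, and in the strongest, with 84 members, the interval around −5.43 included 0 (−15.0 to 5.48). ∆HD-only peaks were recovered less often than members, in 2.83% (2.49 to 3.20) and 8.64% (8.06 to 9.26).

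**Figure D4:**
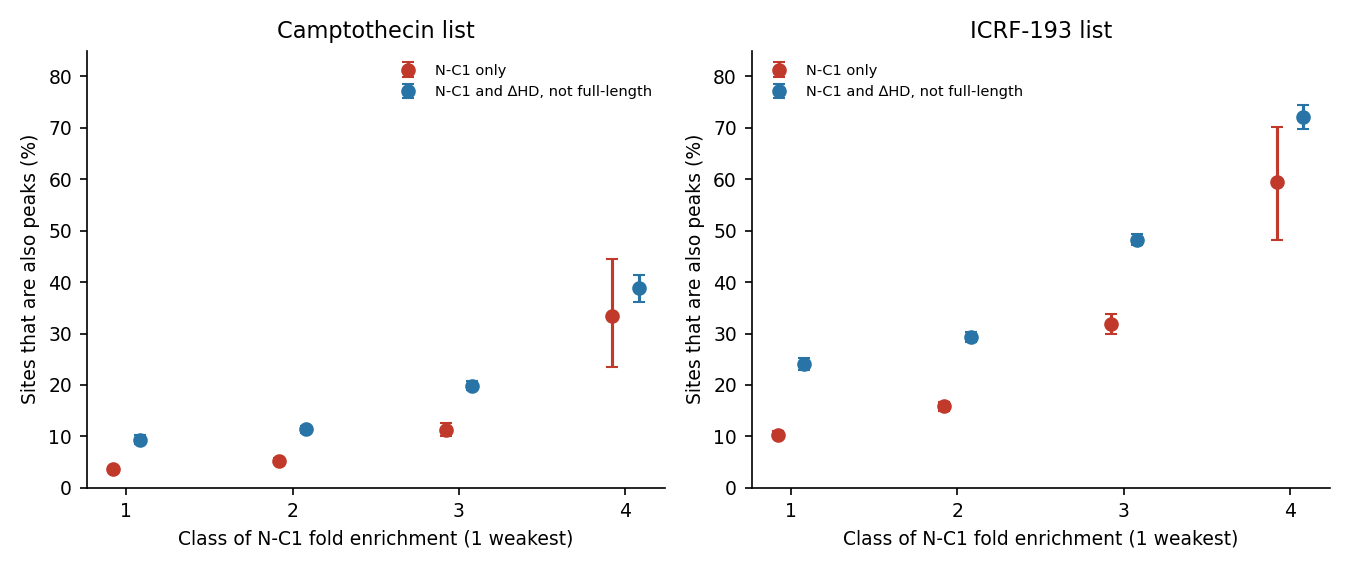
Share of sites (%) that are also peaks of the camptothecin list (left) and of the ICRF-193 list (right), by class of N-C1 fold enrichment, for members (red) and N-C1 and ∆HD sites (blue). Error bars are exact 95% intervals. Recovery of members goes from 10.3% in the weakest class to 59.5% in the strongest after ICRF-193, and lies below that of N-C1 and ∆HD sites in each class, with intervals that overlap in the strongest class in both lists.

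Recovered members were richer in A/T and motifs, and were also stronger and wider N-C1 peaks. Members found in either drug list had a median fold enrichment of 5.18 and a median width of 300 bp. Members found in neither had 4.65 and 274 bp. The part of strength and width in the contrast of motif number was not tested. Those found in either drug list held 73.1% A/T (SD 3.39) and 2.15 motifs, those found in neither 70.3% (SD 3.83) and 1.86, a difference of 2.83 percentage points of A/T (2.70 to 2.96) and of 0.29 motifs (0.25 to 0.33). Their flanks differed by 0.79 percentage points (0.63 to 0.94). Recovery after ICRF-193 was 11.5% (10.7 to 12.4) with 1 motif, 14.4% with 2, 19.95% with 3, 24.8% with 4 and 39.9% (31.8 to 48.4) with 5 or more. After camptothecin it went from 3.78% (3.29 to 4.33) to 18.2% (12.2 to 25.5). Members without a motif were recovered in 12.6% (10.8 to 14.5) and 5.46% (4.28 to 6.86).

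Recovery was also higher at higher A/T content. When members were split at the quartiles of A/T content, 5.45% (4.85 to 6.10) of the lowest quartile were peaks after ICRF-193, then 9.64%, 16.1% and 31.8% (30.4 to 33.2) of the highest. After camptothecin the shares were 1.82% (1.47 to 2.22), 3.18%, 4.79% and 12.3% (11.4 to 13.3). The same order was found at each strength. In the weakest class recovery after ICRF-193 went from 3.63% (2.97 to 4.40) to 23.1% (21.4 to 24.96), and in the 2 strongest classes together from 13.3% (10.6 to 16.4) to 60.1% (56.1 to 64.1). It was also found at each motif number, from 4.61% to 24.7% for members with at most 1 motif and from 7.50% to 39.2% for those with 3 or more. The pattern was shared with other sites, since N-C1 and ∆HD sites split at the same values went from 19.7% (18.8 to 20.6) to 64.1% (62.7 to 65.5).

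**Figure D5:**
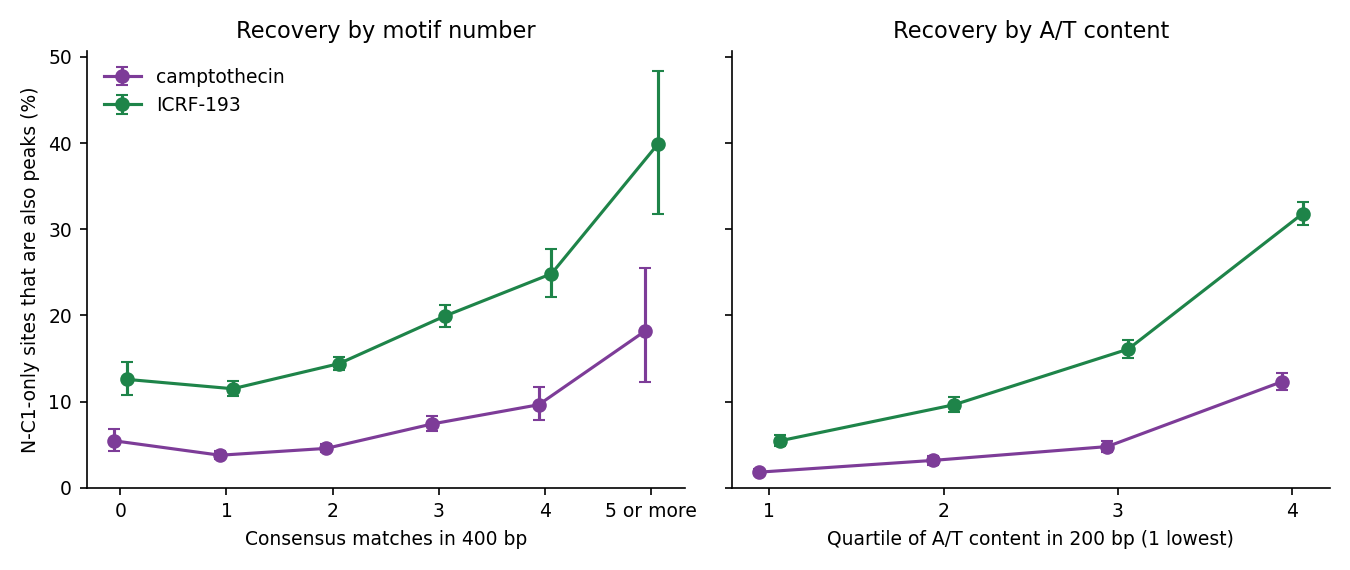
Share of members (%) that are also peaks after camptothecin (purple) or ICRF-193 (green), by the number of consensus matches in 400 bp (left) and by quartile of A/T content in 200 bp (right). Error bars are exact 95% intervals. After ICRF-193 the share reaches 39.9% at 5 or more matches and 31.8% in the most A/T-rich quartile.

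Where members were recovered, the peaks of the drug lists were weak. The median fold enrichment within the camptothecin list was 5.01 at members, 5.01 at N-C1 and ∆HD sites and 7.67 at common sites, and within the ICRF-193 list 5.34, 5.44 and 9.29. Among the strongest members found in both lists were the sites at 52294781 on chromosome 2 and 69340511 on chromosome 9, whose sequences were printed first. Each had a fold enrichment of 6.28 within the camptothecin list and of 7.14 within the ICRF-193 list. Recovery after camptothecin was 9.09% (7.61 to 10.7) for members within 1 kb of a full-length or ∆HD peak and 4.28% (3.90 to 4.68) for those over 10 kb away. After ICRF-193 the shares were 19.7% (17.6 to 21.9) and 14.4% (13.7 to 15.0).

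By the summit and protein-coding transcripts, 11350 members were intergenic, or 59.3% (58.6 to 59.96), 7403 intronic, or 38.7% (37.97 to 39.3), 289 exonic, or 1.51% (1.34 to 1.69), and 109 at promoters, or 0.569% (0.468 to 0.686). All N-C1 peaks had 59.8%, 38.3%, 1.35% and 0.544%. A promoter reached from 1000 bp before a transcription start to 100 bp after it. The median distance to the nearest start was 113 kb in members, 108 kb at N-C1 and ∆HD sites, 104 kb at common sites and 93.2 kb at ∆HD-only peaks. Members lay within 5 kb of a start in 5.49% (5.17 to 5.82) and beyond 100 kb in 52.4% (51.7 to 53.1), where positions every 278 bp of the genome gave 10.1% and 38.5%. The few promoter members were accessible in native cells in 15.6% (9.36 to 23.8) and recovered after ICRF-193 in 6.42% (2.62 to 12.8).

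The strongest promoter members were at PLPPR1, a membrane protein of neurite growth, on chromosome 9 (103946826 to 103947138, fold enrichment 8.65), at HOMER2, a scaffold of synapses, on chromosome 15 (83533376 to 83533720, 7.95), and at EIF2AK3, a kinase of the response to unfolded proteins, on chromosome 2 (88894769 to 88895039, 6.74). None of the 3 overlapped an ATAC-seq peak, and HOMER2 alone was recovered, after ICRF-193. The strongest exonic members all lay in 3′ UTRs. They were those of HTR2C, a serotonin receptor, on chromosome X (114144408 to 114144786, 9.86), LACTB, a mitochondrial protein, on chromosome 15 (63421948 to 63422304, 8.99), and EBAG9, on chromosome 8 (110578016 to 110578510, 8.82). All 3 were found after ICRF-193.

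Member summits fell into 3357 of 19821 protein-coding genes, or 16.9%, which were long genes, with a median length of 121 kb against 18.8 kb for the rest. In gene bodies there were 0.614 member summits per 100 kb, and over the genome 0.670. The gene with the most was CSMD3, a giant membrane protein gene of the nervous system, with 64 summits in 1214 kb, or 5.27 per 100 kb, next to 48 N-C1 and ∆HD and 46 common summits. Other genes with many were PTPRD, a receptor tyrosine phosphatase (47), LRP1B, of the LDL receptor family (39), PCDH15, a protocadherin (37), EYS, a retinal protein (31), CTNNA3, a catenin (28), and RIMS2 and CNTN5, of synapses and axons (24 each). These genes were chosen by their member summits, and N-C1 and ∆HD summits were more numerous in EYS (34) and CNTN5 (28).

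Of gene groups, the giant genes of fragile sites and synapses held member summits in 22 of 22, with 346 summits, or 0.968 per 100 kb of gene body, with PTPRD and LRP1B holding the most. N-C1 and ∆HD summits numbered 1.09 and common summits 0.879 per 100 kb in these genes. ERBB receptors and neuregulins, growth factor receptors and their ligands, held them in 4 of 8 genes (0.762 per 100 kb, N-C1 and ∆HD sites 1.06, common sites 1.16), with 17 in ERBB4, 8 in NRG1 and 5 in NRG3. Among genes of the epithelial to mesenchymal transition, 5 of 13 held 7 summits, with 2 each in ZEB2 and CDH2 and 1 in TGFBR1, or 0.655 per 100 kb against 0.842 for common sites. Of 12 basal mammary genes, TP63, a transcription factor of basal epithelia, held 5 summits and the others none, or 0.629 per 100 kb. Of 10 luminal genes, ESR1, the estrogen receptor, held 4 and PGR, the progesterone receptor, 1, or 0.566 per 100 kb. The rates of these 3 groups lay near the 0.614 of all gene bodies.

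Lists of short genes, and zinc finger genes of chromosome 19, held few member summits. None of the 7 AP-1 subunit genes and none of the 64 histone genes matched held a member summit, in 0.0506 Mb and 0.133 Mb of gene body in all, so that few could fall there. Ribosomal protein genes held 2 summits, in 1 of 83 genes and in 0.770 Mb of gene body. Zinc finger genes of chromosome 19 held 16, in 16 of 248 genes, or 0.215 per 100 kb against 0.242 for common sites. Chromosome 19 as a whole was sparse in members, at 1.47 per Mb.

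By chromosome, members were densest on chromosome 1 (9.54 per Mb), 5 (8.95), 4 (8.88) and 8 (8.87), and sparsest among autosomes on 22 (1.38), 19 (1.47) and 17 (2.70), around 6.70 per Mb over the genome. N-C1 and ∆HD sites were also dense on 1 (10.5), 5 (10.2), 4 (10.5) and 8 (9.13). They were sparse on 22 (2.29), 19 (1.88) and 17 (3.53), so the pattern was not particular to members. Members made up between 20.6% of the N-C1 peaks on chromosome 22 and 32.5% on chromosome X. DNA copy number was not measured here, and its part in these densities was not tested. Members lay near other N-C1 peaks. Another one was within 10 kb for 51.2% of members (50.5 to 51.9), against 48.5% (47.8 to 49.2) of N-C1 and ∆HD sites and 47.9% (47.2 to 48.6) of common sites.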

How the data were processed

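ChIP-seq and ATAC-seq of MCF10A cells were used as the peak lists the authors deposited. Per the study's methods and the submitters' processing notes, reads were trimmed with cutadapt, aligned to hg19 with Bowtie2 and called with MACS2, for ChIP-seq against input DNA. The versions of Bowtie2 and MACS2, the depth of each list and the pooling of libraries are not given in the sources used here, and the study states only a range of depth over its ChIP-seq libraries. The deposited ratio is the fold enrichment of each peak over local background, and the deposited −log10 q-value is that of the caller.

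Members are N-C1 peaks with no overlap of 1 bp or more with the full-length or ∆HD list. Motifs were counted in 400 bp and A/T content in 200 bp at the peak midpoint, and features were taken at the summit from protein-coding transcripts. All motif backgrounds are non-overlapping 400 bp tiles of the genome, and overlap backgrounds are 278 bp tiles. A/T content was missing for 2 members with masked bases. Differences of shares carry Newcombe intervals and differences of means normal ones, at 95%. No p-value was computed, because each condition had 1 list. The mouse lists and other MCF10A assays were not used here.

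Named sites, on chromosomes 1 to 22 and X, were taken by fixed ranks of fold enrichment, motif number, feature, accessibility, recovery and distance, and named genes by their number of member summits. Some sites and genes that these ranks select are not reported here. The members and gene lists were chosen with earlier results of these data known. Scripts were tested on simulated data. Python 3.11.15, numpy 2.4.6, pandas 2.3.3, scipy 1.17.1, matplotlib 3.10.9 and bedtools 2.31.1 were used.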

Additional observations from a re-analysis of the deposited data

How the results depend on the processing

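The 19151 members numbered 8095 at a fold enrichment of at least 5 and 10267 at a −log10 q-value of at least 5, while a gap of more than 500 bp left 18505 and a reciprocal overlap of 50% gave 20225. The share with a motif was 82.8% in 150 bp, 56.9% for CTAATAA or CTAATAG and 95.2% at a fold enrichment of at least 5. A/T content was 71.7% in 100 bp, 69.3% in 400 bp, 70.7% in 200 bp at the summit and 70.9% at a fold enrichment of at least 5. The A/T difference from common sites was −0.585 percentage points in the second strength class and −0.0616 in the third, and it turned to 0.30 in the strongest, where 84 members remained and the interval included 0. The motif difference was −0.38, −0.41, −0.34 and −0.41 from the weakest class to the strongest.

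Accessibility in native cells was 2.14% with the summit inside an ATAC-seq peak, 2.77% with ATAC-seq peaks of a −log10 q-value of at least 5 and 2.80% for members of a fold enrichment of at least 5. In cells expressing Satb1 the values were 2.28%, 2.86% and 2.74%. Recovery was 4.90% after camptothecin and 14.5% after ICRF-193 at a reciprocal overlap of 50%, and 7.37% and 21.4% at a fold enrichment of at least 5. Promoters took 2.67% with transcripts of every type and 2.05% with 2000 bp on either side of a start, and introns 54.99% with transcripts of every type. The ratio of motif pairs on multiples of 10 bp to pairs between them was 1.93 and became 1.41 with windows on both sides, an alternative chosen after seeing the data. The cause of these shifts was not tested. No paired analysis was possible because each condition had 1 list.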
